A study of Mus musculus with 6 samples.

Results

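C1q is the recognition molecule of the classical complement pathway, and the major histocompatibility complex (MHC) presents peptides to T cells. The 10 genes chosen here encode the chains of these complexes: C1qa, C1qb and C1qc for C1q, H2-Aa, H2-Ab1, H2-Eb1 and Cd74 for class II presentation, and B2m, H2-K1 and H2-D1 for class I presentation. They were chosen by name, and 9 of the 10 are among the 7373 rows of the deposited table. H2-Eb1 is not one of those rows and was not analysed here. The 9 genes were read in RNA of whole kidneys from adult males of FVB/N, an inbred mouse strain. Transgenic kidneys (3 samples) came from mice that overexpress CryAB with the R120G missense mutation under the α-myosin heavy chain promoter, which is specific to heart muscle cells. These kidneys were taken before heart failure set in. Control kidneys (3 samples) came from mice of the same strain, age and sex, whose genotype label is control. No ischemia-reperfusion had been done in either group. The labels speak of triplicates and number no animals, so the p-values rest on sample-to-sample spread, which may be technical.

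In most tissues C1q is made by resident macrophages, and its A, B and C chains are needed in equal numbers. Class II molecules sit mainly on dendritic cells, macrophages and B cells, where Cd74, the invariant chain, guides them to the endosome and holds the peptide groove until it is cut away. Class I molecules sit on nearly all nucleated cells, tubule epithelium and endothelium included: H2-K1 and H2-D1 are heavy chains, and B2m is β2-microglobulin, the light chain that both share. In whole kidney RNA the C1q genes therefore stand for a minor cell population, and the class I genes for all cells together.

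Promoter sequences of 5 members of the 3 classes are shown with matches to 4 motifs. The inverted CCAAT occurred in windows of both class II and class I members. Each runs 5′ to 3′ on the gene's strand over the 250 bases before the transcript start listed by RefSeq (GRCm38.p6, the assembly that mm10 names). Capitals mark matches, on either strand, to 4 motifs: CCAAT, whose inverted form ATTGG is the core of the Y box of class II promoters; GAGGAAG, a core bound by the myeloid factor PU.1; GAAANNGAA, a core of interferon response elements; and GGGATTCC, a core of the class I enhancer bound by NF-κB. The C1qb window is chr4:136886201-136886450 and the C1qc window chr4:136892915-136893164, both on the minus strand. The C1qc start in the promoter table lies inside the gene's full span, so the last 22 bases of its window overlap the end of that span.

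C1qb: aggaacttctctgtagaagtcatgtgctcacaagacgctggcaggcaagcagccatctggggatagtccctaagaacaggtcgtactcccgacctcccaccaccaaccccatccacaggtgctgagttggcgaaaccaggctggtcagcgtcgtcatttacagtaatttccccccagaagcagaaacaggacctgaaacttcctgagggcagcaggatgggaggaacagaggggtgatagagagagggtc

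C1qc: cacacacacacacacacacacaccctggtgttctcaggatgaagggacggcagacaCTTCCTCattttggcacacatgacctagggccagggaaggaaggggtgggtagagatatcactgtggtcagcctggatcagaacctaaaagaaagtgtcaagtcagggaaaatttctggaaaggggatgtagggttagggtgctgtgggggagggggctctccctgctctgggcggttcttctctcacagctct

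The H2-Aa window is chr17:34287824-34288073 on the minus strand, the B2m window chr2:122147437-122147686 on the plus strand and the H2-D1 window chr17:35262844-35263093 on the plus strand.

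H2-Aa: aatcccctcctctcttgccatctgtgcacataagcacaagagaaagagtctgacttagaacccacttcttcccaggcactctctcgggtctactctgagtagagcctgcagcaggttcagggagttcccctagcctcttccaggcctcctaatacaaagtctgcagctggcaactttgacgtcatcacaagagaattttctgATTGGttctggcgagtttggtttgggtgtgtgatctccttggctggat

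B2m: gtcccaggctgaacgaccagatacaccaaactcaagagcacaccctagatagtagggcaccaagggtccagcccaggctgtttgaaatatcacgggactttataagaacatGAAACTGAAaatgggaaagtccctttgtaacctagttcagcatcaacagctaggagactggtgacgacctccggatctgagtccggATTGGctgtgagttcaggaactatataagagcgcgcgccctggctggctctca

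H2-D1: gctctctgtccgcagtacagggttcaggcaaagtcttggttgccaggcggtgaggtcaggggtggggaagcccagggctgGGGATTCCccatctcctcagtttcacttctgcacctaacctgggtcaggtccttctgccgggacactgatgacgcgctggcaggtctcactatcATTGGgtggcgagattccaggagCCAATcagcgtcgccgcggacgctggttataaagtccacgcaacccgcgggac

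The C1qb window held none of the 4 motifs and the C1qc window held 1, a PU.1 core read as CTTCCTC. H2-Aa held 1 inverted CCAAT, from 48 to 44 bases before the start. B2m held an inverted CCAAT at 53 to 49 bases before the start and an interferon response core at 139 to 131 bases. H2-D1 held 2 CCAAT matches, 1 in each orientation, and the NF-κB core, which overlapped no other match. CCAAT was in 33.9% of all 32851 windows of this length, GAGGAAG in 10.6%, GAAANNGAA in 7.13% and GGGATTCC in 0.889%. A match is a description of the letters, not a site.

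The libraries held between 23.5 and 47.6 M estimated counts over the listed genes. Control 3 stood apart: each of the 178 X or Y genes in the table was at 0 there and above 0 in the other 5 libraries, so these genes were left out of the fit, and the members' values are also given without control 3. No member lies on X or Y. The members had at least 169 counts in every library (C1qc, transgenic kidney 1) and up to 34032 (H2-D1, control 3), and all 9 passed the authors' filter in 6 of 6 libraries. Kidney epithelium markers were abundant, with Slc34a1, the proximal tubule phosphate transporter, at a control mean of 7351 ± 572 CPM, that is, counts per 1 M counts of the library after TMM scaling (SD, n = 3). It had a log2 fold change of 0.06, and Umod, Lrp2 and Aqp2, of the thick ascending limb, proximal tubule and collecting duct, had -0.10, 0.01 and -0.16.

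The comparison asked which kidney transcripts differ before the heart disease becomes overt. The 3 C1q genes had lower means in transgenic kidneys, by 0.22 to 0.25 on the log2 scale, and the 3 class II genes by 0.10 to 0.14, while the class I means lay on either side of the controls. These differences were within the spread between libraries. None of the 9 members passed the edgeR quasi-likelihood test, adjusted by Benjamini-Hochberg over 7194 genes (adjusted p = 0.997 for each). That test called 1 gene in all, 0.0139% of those tested, and DESeq2 called 0 members and 0.0278% of all genes. An unadjusted p under 0.05 in the edgeR test was reached by 0 members and by 1.82% of genes. In no member did the 3 transgenic values separate from the 3 control values, which 5.98% of all genes did.

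The 3 C1q genes lie side by side on chromosome 4 (mm10): C1qb from 136880126 to 136886200, C1qc from 136889801 to 136892936 and C1qa from 136895916 to 136898844. The A chain gene C1qa (gene ID 12259) stood at 14.7, 13.7 and 20.0 CPM in controls 1, 2 and 3 and at 11.7, 12.9 and 16.2 in transgenic kidneys 1, 2 and 3. Transgenic kidneys 1 and 2 were below all controls, transgenic kidney 3 was inside the control range, and control 3 was the highest library. Control kidneys averaged 16.1 ± 3.37 CPM (SD, n = 3) and transgenic ones 13.6 ± 2.34 (SD, n = 3), for a log2 fold change of -0.25 ± 0.19 (SE) with a 95% interval from -0.67 to 0.18. It was -0.06 when control 3 was left out and -0.40 without transgenic kidney 3.

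The B chain gene C1qb was steady in controls, at 9.65, 9.43 and 9.97 CPM, and spread in transgenic kidneys, at 6.60, 8.05 and 10.3. Transgenic kidneys 1 and 2 were again below all controls, but transgenic kidney 3 was the highest of the 6 libraries. The log2 fold change was -0.22 ± 0.18 (SE), with a 95% interval from -0.63 to 0.19. Without transgenic kidney 1 it was -0.08, and without transgenic kidney 3 it was -0.41.

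The C chain gene C1qc stood at 7.40, 9.75 and 9.61 CPM in controls and at 5.93, 7.96 and 9.14 in transgenic kidneys. Transgenic kidney 1 was the lowest library here too, while control 1 lay below the other 2 transgenic kidneys. The log2 fold change was -0.22 ± 0.20 (SE), with a 95% interval from -0.67 to 0.24. It was -0.06 without transgenic kidney 1 and -0.37 without transgenic kidney 3. For all 3 chains the intervals span values from well below 0 to above it. In bulk RNA fewer macrophages and less C1q RNA per macrophage cannot be told apart.

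**Figure D1:**
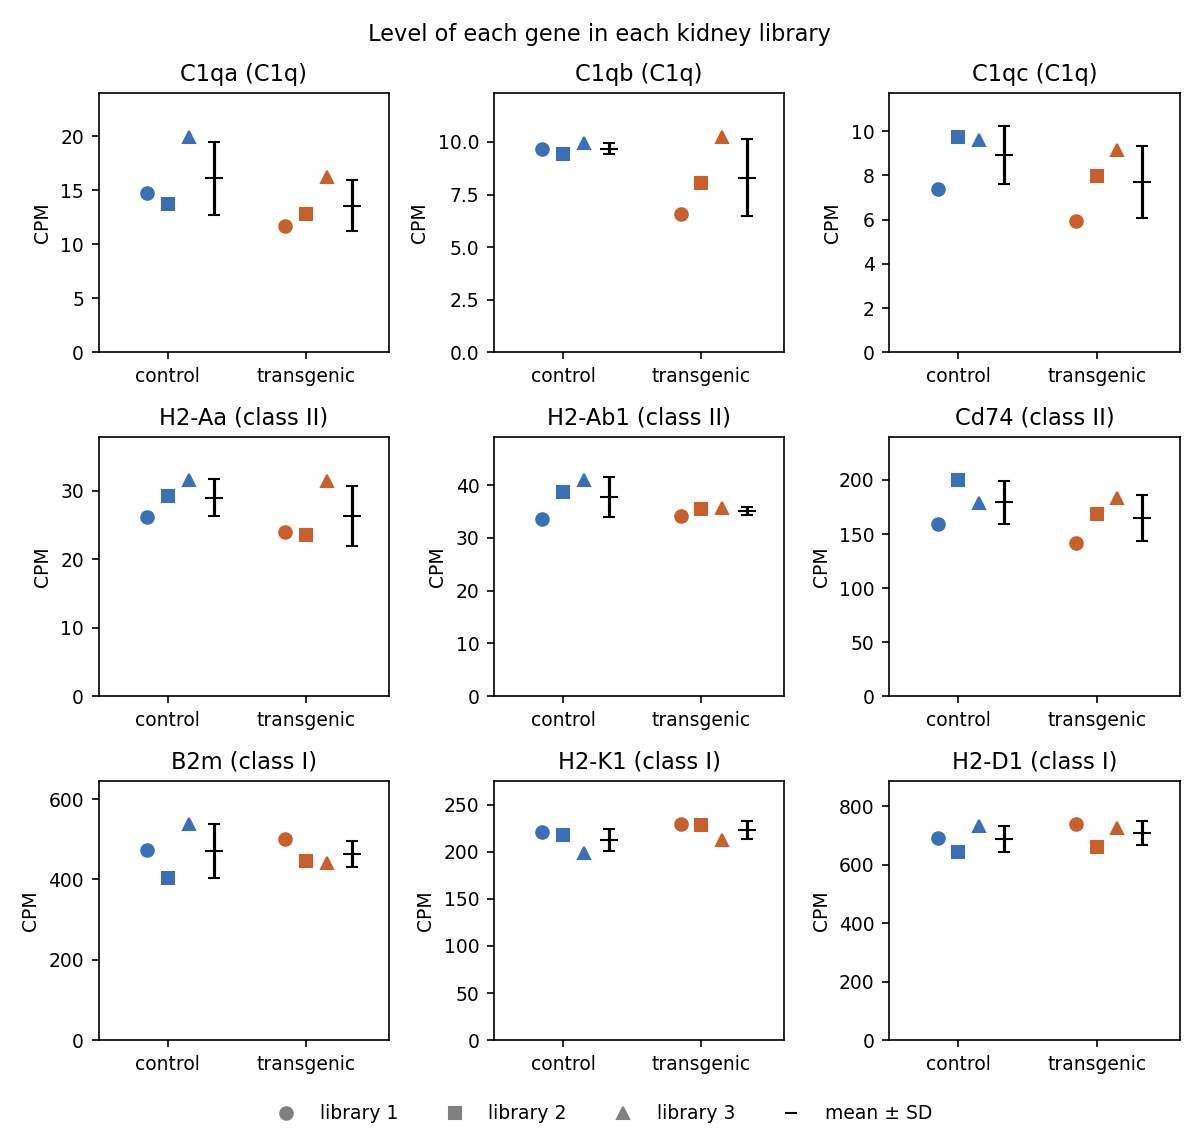
Level of each of the 9 listed genes in CPM (y axis from 0) in the 3 control and 3 transgenic kidney libraries; marker shapes are library numbers and black bars are mean ± SD. In every panel the groups overlap, and in the C1q row transgenic kidney 1 (circle) is the lowest point while transgenic kidney 3 (triangle) lies among the controls for C1qa and C1qc and above them for C1qb.

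Class II differences were smaller. H2-Aa (34282744 to 34287823) and H2-Ab1 (34263227 to 34269418) are neighbours in the MHC on chromosome 17 (mm10). H2-Aa, the α chain of the I-A molecule, stood at 26.1, 29.3 and 31.5 CPM in controls and at 23.9, 23.6 and 31.4 in transgenic kidneys. Transgenic kidneys 1 and 2 were below all controls, as for C1qa and C1qb, and transgenic kidney 3 was near the highest control. The difference was -0.14 ± 0.14 (SE) on the log2 scale, with a 95% interval from -0.45 to 0.18, and it was -0.29 without transgenic kidney 3 and -0.07 without transgenic kidney 2.

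H2-Ab1, the β chain that pairs with H2-Aa, was at 33.5, 38.6 and 40.9 CPM in controls and at 34.1, 35.4 and 35.7 in transgenic kidneys. All 3 transgenic values lay inside the control range, between control 1 and control 2. On the log2 scale they differed from controls by -0.10 ± 0.10 (SE), with a 95% interval from -0.33 to 0.12. It was -0.18 without control 1 and -0.04 without control 3.

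Cd74 lies outside the MHC, on chromosome 18 from 60803849 to 60812652 (mm10). It was at 159, 199.5 and 179 CPM in controls and at 142, 169 and 184 in transgenic kidneys. Only transgenic kidney 1 was below all controls. Cd74's log2 fold change was -0.12 ± 0.12 (SE), with a 95% interval from -0.40 to 0.15. Without transgenic kidney 1 it was -0.02, and without transgenic kidney 3 it was -0.21.

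The class I genes had group means close to each other. H2-K1 (33996012 to 34000619) and H2-D1 (35263094 to 35267497) flank the class II region on chromosome 17 (mm10), and B2m is on chromosome 2 from 122147687 to 122153082. The shared light chain gene B2m stood at 473, 404 and 537 CPM in controls and at 501, 446 and 442 in transgenic kidneys. All transgenic values were inside the control range. B2m had a log2 fold change of -0.03 ± 0.12 (SE), with a 95% interval from -0.29 to 0.24, and its sign turned without control 3 (0.08).

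The heavy chain gene H2-K1 was at 221, 218 and 199 CPM in controls and at 229, 228 and 213 in transgenic kidneys. Transgenic kidneys 1 and 2 were above all controls, the opposite order to C1qa and C1qb, and transgenic kidney 3 was inside the control range. The log2 fold change was 0.07 ± 0.08 (SE), with a 95% interval from -0.11 to 0.26. It was 0.03 without control 3.

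H2-D1, the other heavy chain gene, was at 690.4, 642 and 731 CPM in controls and at 738, 661 and 725 in transgenic kidneys. The 2 groups spanned nearly the same range, with a log2 fold change of 0.04 ± 0.09 (SE) with a 95% interval from -0.16 to 0.24. H2-K1 and H2-D1 share sequence with each other and with other class I genes: in the reference transcripts 9.63% of the 50-base windows of H2-K1 and 12.8% of those of H2-D1 also occur in transcripts of other genes, against 0.514% for H2-Aa and 0 for C1qa, C1qb, C1qc, H2-Ab1, Cd74 and B2m. How the authors' counting divided such reads is not given in the sources used here. FVB/N also carries another MHC haplotype than the mouse strain of the reference genome, so levels of the polymorphic H2 genes may miss reads, and this was not tested.

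**Figure D2:**
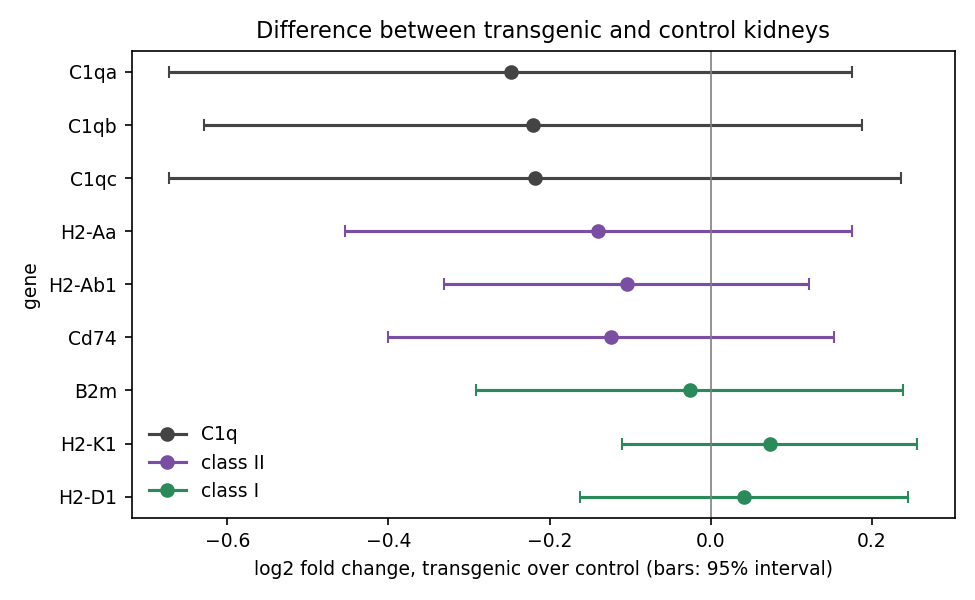
Log2 fold change of each gene, transgenic over control kidneys (x axis), with 95% intervals from the edgeR fit of 3 against 3 libraries. All 9 intervals span 0; the C1q estimates lie between -0.25 and -0.22, class II between -0.14 and -0.10 and class I between -0.03 and 0.07.

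As classes, the median log2 fold change was -0.22 for the 3 C1q genes, -0.12 for the 3 class II genes and 0.04 for the 3 class I genes, beside 0.00 for all 7194 genes. Of the 9 members 7 had a lower mean in transgenic kidneys, and 49.7% of all genes did. Among all genes the central 95% of log2 fold changes ran from -0.29 to 0.23, and all 9 members were inside it. Without control 3 the log2 fold changes were -0.06 for C1qa, -0.20 for C1qb and -0.16 for C1qc, -0.07 for H2-Aa, -0.04 for H2-Ab1 and -0.13 for Cd74, and 0.08 for B2m, 0.03 for H2-K1 and 0.09 for H2-D1. With limma array weights, which give less weight to libraries that deviate more, the medians were -0.14, -0.03 and 0.03. The members of a class share libraries, so their common sign is not repeated evidence.

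Within each library the classes were compared as the mean log2 CPM of their genes, which cancels any scaling of that library. The difference of C1q minus class I, relative to its mean over the 6 libraries, was -0.02, 0.19 and 0.23 in controls and -0.49, -0.10 and 0.19 in transgenic kidneys. Transgenic kidneys 1 and 2 were below all controls and transgenic kidney 3 was level with control 2. The group means differed by -0.27, next to SDs of 0.13 in controls and 0.34 in transgenic kidneys. Without transgenic kidney 1 this difference was -0.09, and without transgenic kidney 3 it was -0.43.

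For class II minus class I the values were -0.11, 0.24 and 0.10 in controls and -0.27, -0.07 and 0.11 in transgenic kidneys, and the means differed by -0.16 (SDs 0.18 and 0.19). That difference was -0.06 without transgenic kidney 1, -0.07 without control 2, -0.25 without transgenic kidney 3 and -0.25 without control 1. For C1q minus class II they were 0.09, -0.05 and 0.14 in controls and -0.22, -0.03 and 0.08 in transgenic kidneys, and the means differed by -0.11 (SDs 0.10 and 0.15). Here it was -0.03 without transgenic kidney 1, -0.17 without control 2, -0.07 without control 3 and -0.18 without transgenic kidney 3. Without control 3, C1q minus class I differed by -0.22 and class II minus class I by -0.15. In all 3 contrasts the groups overlapped. No test was made of these class values, since the members were chosen with results known.

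**Figure D3:**
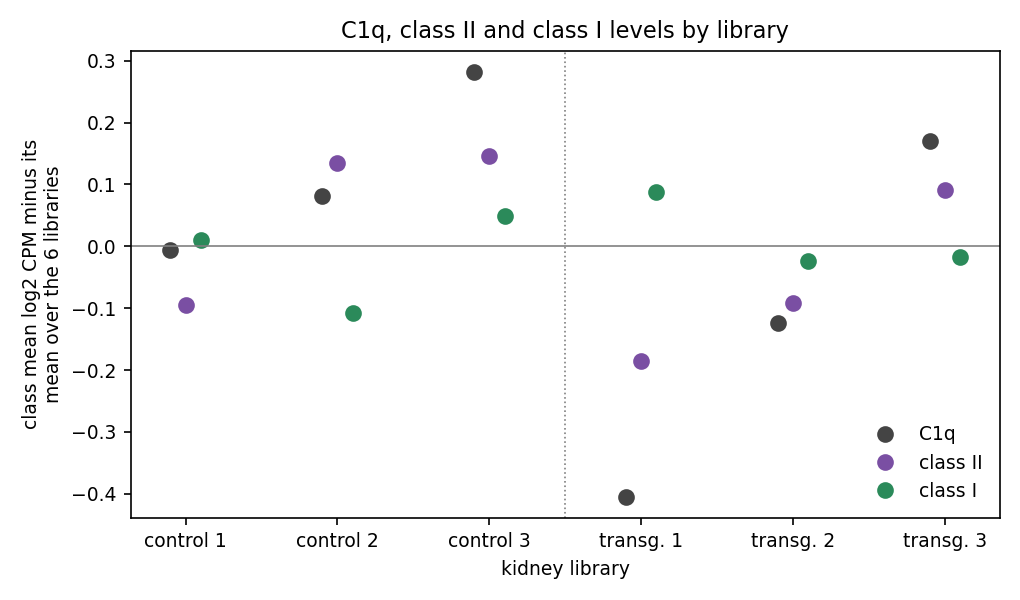
Mean log2 CPM of the C1q, class II and class I genes in each kidney library, minus the class's mean over the 6 libraries (y axis). C1q spans -0.40 (transgenic kidney 1) to 0.28 (control 3), class II -0.19 to 0.15 and class I -0.11 to 0.09; C1q and class II are both lowest in transgenic kidney 1, where class I is highest.

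The spread over the 6 libraries differed between classes. The SD of log2 CPM was 0.27 for C1qa, 0.24 for C1qb and 0.27 for C1qc, larger than in 90.7%, 86.4% and 91.0% of all genes. It was 0.19 for H2-Aa, 0.17 for Cd74 and 0.11 for H2-Ab1, and for the class I genes 0.15 (B2m), 0.08 (H2-D1) and 0.08 (H2-K1), with a median of 0.14 over all genes. H2-K1 varied more than only 13.3% of genes did. The C1q genes also have the fewest counts among the members. Transgenic kidney 1 was the lowest library for all 3 C1q genes and for Cd74, 4 of the 9 members; it was lowest for 13.3% of all genes.

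Within a complex the ratios between chains were read in each library. The CPM ratio of C1qb to C1qc was between 0.97 and 1.30 over the 6 libraries and that of C1qa to C1qb between 1.45 and 2.004, with control 3 at the upper end. H2-Ab1 over H2-Aa ran from 1.14 in transgenic kidney 3 to 1.501 in transgenic kidney 2, and Cd74 over H2-Ab1 from 4.15 to 5.17. H2-D1 over H2-K1 ran from 2.89 to 3.68. These are ratios of counts, not of transcripts per length.

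Per kilobase of annotated exon, B2m had the highest level in controls, at 548 ± 77.7 CPM per kb (SD, n = 3), then H2-D1 (267 ± 17.3), Cd74 (107 ± 11.9) and H2-K1 (72.3 ± 4.05). The next were C1qa (15.5 ± 3.24) and H2-Ab1 (14.7 ± 1.47), whose control values overlapped, then C1qb (8.90 ± 0.249), H2-Aa (7.63 ± 0.705) and C1qc (4.62 ± 0.680). In transgenic kidneys the order was the same except that H2-Ab1 (13.7 ± 0.321) came before C1qa (13.1 ± 2.25), and these overlapped again, as did C1qb (7.63 ± 1.69) and H2-Aa (6.92 ± 1.16). Other neighbours in the order did not overlap within a group. Cd74 was thus above H2-Aa and H2-Ab1 in CPM per kb, but levels of the polymorphic H2 genes may miss reads, and this was not tested. Exon lengths take in all annotated transcripts of a gene, so a rarely used exon lowers its value.

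Markers of the cells that make these proteins were read beside them. Of 37 macrophage and monocyte markers 8 were tested, 3 with a lower and 5 with a higher mean in transgenic kidneys, none called, with a median log2 fold change of 0.03. Their summed level was 1114 to 1599 CPM in controls and 1289 to 1349 in transgenic kidneys, and it was lowest in control 2 and highest in control 3. The most abundant of the 8 was Lgmn (822 ± 198 CPM in controls, SD, n = 3), a lysosomal protease that tubules make as well.

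Single markers did not share 1 pattern. Lyz2, lysozyme of myeloid cells, stood at 8.65, 10.3 and 14.3 CPM in controls and at 7.65, 8.88 and 11.998 in transgenic kidneys. Like C1qa it was lowest in transgenic kidney 1 and highest in control 3. Csf1r, the receptor for macrophage colony-stimulating factor, was instead lowest in control 3, at 90.9, 89.7 and 51.0 CPM in controls against 75.4, 83.5 and 78.8 in transgenic kidneys. Tyrobp, a myeloid signalling adaptor, was at 4.31, 4.36 and 5.72 CPM in controls and 4.07, 3.85 and 4.95 in transgenic kidneys, with transgenic kidneys 1 and 2 below all controls. Sirpa, a myeloid inhibitory receptor, had a log2 fold change of 0.05. Lyz2 (-0.22) and Tyrobp (-0.16) had the lowest log2 fold changes of the 8 markers, and Coro1a and Fcgr2b (0.13 each) the highest. Coro1a stood at 8.66, 7.27 and 10.2 CPM in controls and at 8.99, 10.5 and 9.14 in transgenic kidneys. Lyz2, Tyrobp, Coro1a and Fcgr2b were named after their values were seen.

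Markers of other presenting cells gave little to read. Of 11 dendritic cell, 10 T and NK cell and 8 neutrophil markers none is among the listed genes, and these cells were not analysed here. Of 10 B and plasma cell markers 1 is listed, Igj, the joining chain of secreted antibodies, at 24.3, 28.5 and 30.3 CPM in controls and 24.3, 38.0 and 20.2 in transgenic kidneys. Of 16 endothelial markers 11 were tested, none called, with a median of -0.08. They summed to 603 to 733 CPM in controls and 601 to 638 in transgenic kidneys. Among the most abundant, Plvap, of fenestrated capillaries, had a log2 fold change of -0.30, Eng 0.08, Ly6c1 -0.14 and Egfl7 -0.11. Plvap and Ehd3 (0.32) had an unadjusted p under 0.05 in the edgeR test, as 1.82% of all genes did. All transgenic values were below all controls for Plvap and above them for Eng and Ehd3, and 5.98% of all genes separated. Ehd3 was named after its values were seen. Of 6 red blood cell genes 4 were tested, none called, with a median of -0.28; the sum was 562 to 965 CPM in controls and 527 to 791 in transgenic kidneys. Hbb-bs and Hba-a2 had an unadjusted p under 0.05 in the edgeR test, as 1.82% of all genes did. Hba-a2 was called when control 3 was left out. It stood at 14.2, 12.7 and 0.26 CPM in controls and at 1.05, 2.06 and 1.24 in transgenic kidneys. Control 3 was thus below all transgenic kidneys, and the 95% interval of Hba-a2 ran from -4.99 to -0.29. The 4 log2 fold changes were -0.23 for Hba-a1, -0.32 for Hbb-bs, -0.12 for Slc4a1 and -2.64 for Hba-a2, which may share reads with Hba-a1. The part of blood or of endothelium in the member values was not tested.

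Of 33 genes chosen for the wider complement system 13 were tested, 8 with a lower and 5 with a higher mean, none called, with a median of -0.01. Factor B, encoded by Cfb and central to the alternative pathway, was among the most abundant: it averaged 572 ± 38.6 CPM in control and 590.2 ± 27.8 in transgenic kidneys (SD, n = 3 each), with a log2 fold change of 0.04. Serping1, the inhibitor of the C1 proteases, was at -0.12, C1qbp, a mitochondrial protein that can bind C1q, at 0.06, and Calr, a chaperone of the endoplasmic reticulum that also serves class I loading, at -0.01. Calr stands on 2 lists.

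Class I processing and loading genes were read for 11 of 16. None was called, 7 had a lower and 4 a higher mean, and the median was -0.01. The lowest was Psmb9, at -0.36 with a 95% interval from -0.74 to 0.01, and it was named for that value. All its transgenic values were below all controls, and 5.98% of all genes separated in either direction. Beside Calr the most abundant were Pdia3, a chaperone of the peptide-loading complex (log2 fold change -0.04), the lectin chaperone Canx (-0.19) and Psme2, a proteasome activator subunit (0.06). Of 18 class I-like chains 4 were tested, none called, with a median of -0.01: Fcgrt, the neonatal Fc receptor that pairs with B2m (0.13), H2-T10 (0.00), H2-Q4 (-0.01) and H2-T23 (-0.02).

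Class II processing and regulator genes were read for 12 of 24, with 5 lower and 7 higher means and none called. Their median was 0.06, opposite in sign to that of the class II chains. The highest was H2-DMb1, at 0.30 with a 95% interval from -0.26 to 0.87, and it was named for that value. The proteases Ctsd, Ctsb and Ctsz had log2 fold changes of -0.09, 0.00 and 0.11, and Lgmn, which cuts the invariant chain among other substrates, -0.03. They are abundant in kidney tubules too. Of 29 interferon receptors, signalling genes and targets 13 were tested, 8 lower and 5 higher, none called, with a median of -0.05. Jak1 was at -0.11, Ifnar1 at 0.01, Stat3 at 0.17 and Ifi27 at -0.20. Ifi27 had an unadjusted p under 0.05 in the edgeR test, as 1.82% of all genes did. All its transgenic values were below all controls, and 5.98% of all genes separated in either direction.

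**Figure D4:**
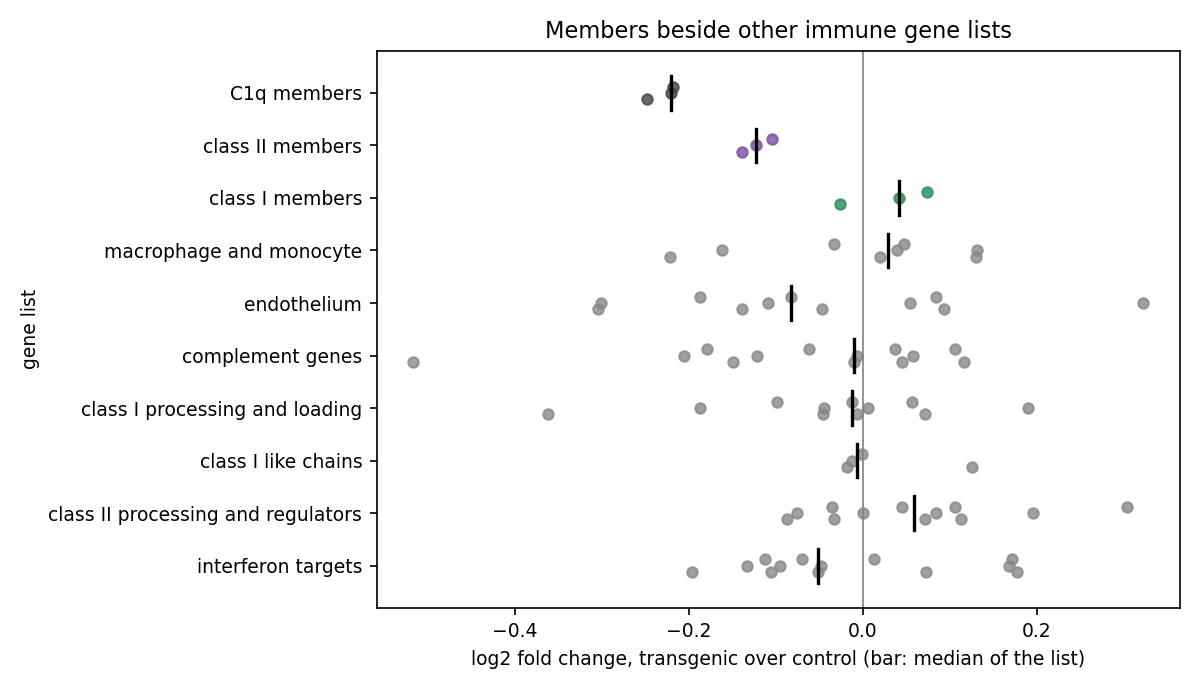
Log2 fold change, transgenic over control kidneys (x axis), of the C1q, class II and class I members and of each tested gene of 7 related lists; each point is a gene and each black bar the list's median. No gene shown passed the test; the C1q genes lie close together at -0.25 to -0.22, while the 8 macrophage markers spread from -0.22 to 0.13.

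Genes outside the members whose library pattern came closest to each class were ranked by the root mean square distance of centred log2 CPM over the 6 libraries, among 7132 genes with at least 5 CPM. Closest to C1q were Sostdc1, a secreted BMP and Wnt antagonist (distance 0.05), Tk1, a thymidine kinase (0.07), Opa3 (0.08), Eid1 (0.08) and Sfrp1, a secreted Wnt antagonist (0.08), where the median gene was at 0.25. None of these is on the macrophage list. But only 8 genes of that list were tested, and Tyrobp, with both group means under 5 CPM, was not ranked, so their absence tells little. Sostdc1 stood at 55.5, 60.4 and 73.7 CPM in controls and 44.0, 55.3 and 63.2 in transgenic kidneys, lowest in transgenic kidney 1 and highest in control 3 as C1qa was. Among the closest to class II were Polr2m, Stub1, Arhgap24 and Ctsf, at distances of 0.02 to 0.03 (median gene 0.18), and closest to class I were C1qbp, Denr, Aagab, Tmbim4 and Decr1, all at 0.02 (median gene 0.14). The ranking describes these 6 libraries and carries no test.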

How the data were processed

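RNA of 6 whole kidney samples was sequenced; groups came from the genotype labels. The authors deposited 1 table, whose raw columns hold estimated counts, unnormalized, with genes kept, per the file headers, where at least 2 of 6 samples had an NRPKM between 5.0 and 84233.281. Genes under that limit are not seen here. The build was mm10, per the submitters' processing notes; for the aligner and counter, none is given in the sources used here. Another 12 columns of per-sample values match none of these samples and were not used, nor were the 6 normalized columns.

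Counts were rounded. Of 7373 rows, 7356 matched RefSeq (GRCm38.p6) by gene ID, and 178 genes of X or Y, all at 0 in the third control, were left out. The main test was edgeR 4.0.16 (R 4.3.3; quasi-likelihood, filterByExpr, TMM, group only; two-sided, Benjamini-Hochberg, threshold 0.05). Alternatives were DESeq2 1.42.0, limma 3.58.1, other scalings and filters, a replicate block and each library left out. An exact permutation test of 3 against 3 cannot go below p = 0.1. Exon lengths and 50-base windows came from GENCODE. The test was checked on simulated data, where it called 52.5% of genes changed 1.5-fold and 99.5% of those changed 2.5-fold. The members' folds, from 0.84 (C1qa) to 1.05 (H2-K1), were smaller changes than either. No library pair looked like a duplicate (chi-square per degree of freedom at least 23.3).

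The members, lists and tests were chosen with earlier results of these data known. Genes named are all listed members, the 4 most abundant tested genes of each list (all, where 4 or fewer), any called, and the 5 closest to each class; exceptions are stated, and 2 genes that this rule takes are not reported here.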

Additional observations from a re-analysis of the deposited data

How the results depend on the processing

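No member was called under any of the 13 alternatives tried (adjusted p from 0.578 to 0.9999 over 117 values), and the sign was kept in 112 of the 117. It turned for H2-Ab1 (0.017) and B2m (0.0014) with limma array weights, for B2m without control 3 (0.079) or transgenic kidney 3 (0.0070), and for H2-D1 without control 2 (-0.006). The count of called genes was 1, and 0 with library totals only, 0 with X and Y genes kept in (112 at an unadjusted p under 0.05), 2 with DESeq2 (163) and 1 with the replicate block; leaving out 1 library gave 0 to 2. Genes at an unadjusted p under 0.05 numbered 131, and 634 with array weights, 597 without control 2 and 47 without transgenic kidney 1. Same-numbered libraries did not deviate together in every pair (correlations of -0.002, -0.027 and 0.331), so the numbers were not taken to pair samples, and the block changed no member's call. Array weights brought the class medians to -0.14 for C1q, -0.03 for class II and 0.03 for class I. Leaving out 1 library gave -0.13 to 0.079 for B2m, -0.006 to 0.089 for H2-D1 and medians of -0.40 to -0.08 for C1q, -0.21 to -0.07 for class II and -0.01 to 0.08 for class I. The cause of these shifts was not tested. With 3 libraries a group, 95% intervals of the C1q genes ran from -0.67 to 0.24 and those of class I from -0.29 to 0.26.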
